A study of Mus musculus with 6 samples.

Results

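The enzymes described here oxidise or reduce aldehydes and ketones. They are the genes whose symbols begin with Aldh (aldehyde dehydrogenases), Akr (aldo-keto reductases), Adh (alcohol dehydrogenases) or Cbr (carbonyl reductases) followed by a digit, without Aldh6a1, an enzyme of valine breakdown. The rule used symbols alone and found 47 genes among the 24984 listed, with 20 Aldh, 17 Akr, 6 Adh and 4 Cbr genes. The choice of these families was made with earlier results of these data known. They were measured by bulk RNA sequencing of the inguinal white fat pad, which lies under the skin of the flank, in wild-type mice on a high-fat diet (n = 3 libraries) and Mpst knockout mice on a high-fat diet (n = 3 libraries). MPST is a sulfurtransferase that makes persulfide and hydrogen sulfide from a breakdown product of cysteine. The comparison asks what the loss of MPST changes in fat of mice fed this diet. The labels give no age, sex or knockout allele, and do not say that the replicates are separate animals, so p-values reflect only how much these libraries vary, and that variation may be technical.

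Reactive aldehydes arise in fat from lipid peroxidation, alcohols, retinol, amino acids and amines. Aldehyde dehydrogenases oxidise them to acids with NAD or NADP, aldo-keto reductases and carbonyl reductases reduce them to alcohols with NADPH, and alcohol dehydrogenases interconvert alcohols and aldehydes. In adipose tissue the retinal-oxidising members are known for making retinoic acid, a ligand of nuclear receptors, and the mitochondrial and lipid-aldehyde members for clearing products of lipid peroxidation.

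The libraries held 8054560 to 22458630 counts in genes, with knockout replicate 1 the smallest, and 0.303% to 0.362% of these fell on members. Mpst had 1358 to 1624 raw counts in the wild-type libraries and 3 to 10 in the knockout libraries, so each library matched its genotype. Adipocyte markers were high in every library. Their sum over 8 genes was 54143 to 63569 CPM (counts scaled to the normalised library size) in wild type and 35989 to 44708 CPM in the knockout, with 2 of 8 called lower. Among them Adipoq and Lipe did not overlap, and Plin1 did (820 to 1263 CPM against 793 to 920 CPM). The sum over 8 macrophage markers was 459 to 867 CPM in wild type and 1251 to 1340 CPM in the knockout, with 5 of 8 called higher. Fibroblast and adipose progenitor markers (7 genes) summed to 2845 to 3806 CPM against 4330 to 5380 CPM, with 2 called higher, and endothelial markers (5 genes) to 707 to 736 against 851 to 1030.0 CPM, with 1 called higher. Hepatocyte markers (4 genes) summed to 34.7 to 49.7 CPM against 10.6 to 15.0 CPM, with 1 called lower, and brown and beige adipocyte markers (5 genes) to 128 to 203 against 75.5 to 109 CPM, with 1 called lower. None of these sums overlapped between the genotypes. T cell sums (11.0 to 15.0 against 11.4 to 33.3 CPM) and B cell sums (4.64 to 10.2 against 7.89 to 10.6 CPM) overlapped. So did mesothelial sums, at 0.325 to 0.919 against 0.849 to 1.55 CPM. A sum leans on its most abundant gene. The highest single value was 35972 CPM in the adipocyte list, 724 CPM in the macrophage list and 46.3 CPM in the hepatocyte list. Skeletal muscle markers stood apart in wild-type replicate 2 (769 CPM over 7 genes) and knockout replicate 3 (1833 CPM), against 41.0 to 133 CPM in the other 4 libraries. Mammary epithelial genes were near 0, with no more than 1.32 CPM in all over 6 genes. In bulk tissue, fewer cells of a type and less RNA per cell cannot be told apart, and the part that these shifts in markers play in the values below was not tested.

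Of the 47 members, 35 had enough counts to be tested, 1 was lower in the knockout and none was higher by edgeR's quasi-likelihood test at an adjusted p under 0.05. The lower gene was Akr7a5. Over all 14065 tested genes the same test called 2.65% lower and 4.76% higher, 7.41% in either direction, so 1 of 35 is no more than the background. At an unadjusted p under 0.05 there were 8 members (22.9%), 7 lower and 1 higher. Of all tested genes 27.6% met this, 12.7% lower and 14.9% higher. The libraries of the genotypes did not overlap for 9 tested members (25.7%), 8 lower and 1 higher. Of all tested genes 33.3% did not overlap, 15.5% lower and 17.8% higher. The members were chosen with earlier results of these data known, so these shares cannot show an excess or a skew. The median log2 fold change was −0.12 over the 35 members and 0.01 over all tested genes, and 22 of the 35 lay below 0 (62.9%, against 49.5% of all tested genes). The size of this shift depended on single libraries and on the low-count filter. The members' median was 0.01 without wild-type replicate 1, with 17 of 36 below 0, −0.04 without wild-type replicate 2, −0.03 without knockout replicate 3 and −0.22 without wild-type replicate 3. It was −0.20 without knockout replicate 1 and −0.17 without knockout replicate 2, each with 22 of 35 below 0. With all 6 libraries and no low-count filter it was −0.028, with 23 of 44 below 0. Without the 2 libraries highest in muscle transcripts it was 0.0040, with 17 of 35 below 0. The plot of members beside all tested genes sets these shares next to each other. Limma-voom called the same gene alone, and DESeq2 called 4 members lower and none higher, at a background of 6.36% lower and 7.64% higher.

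**Figure D1:**
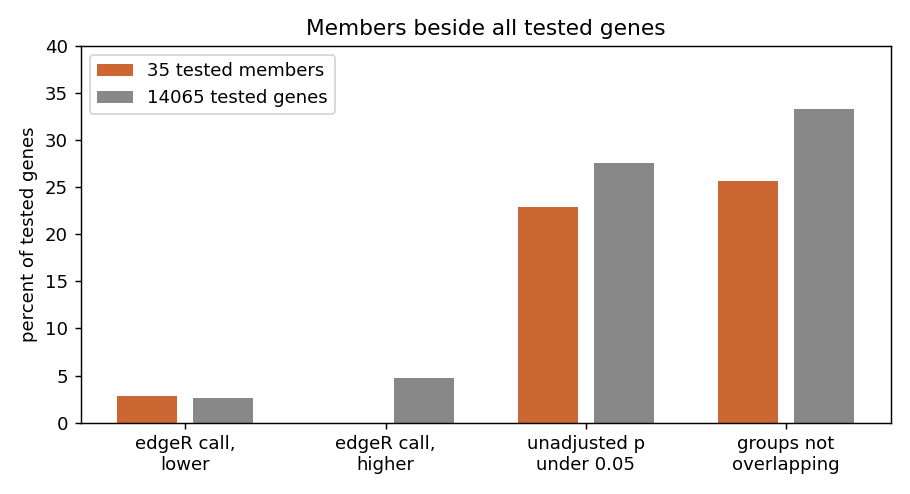
Percent of tested genes (vertical axis) that met each of 4 criteria in the comparison of Mpst knockout with wild type, for the 35 tested members (orange bars) and all 14065 tested genes (grey bars). The members' share was 2.86% against 2.65% for lower calls and 0 against 4.76% for higher calls. With both directions together it was 22.9% against 27.6% at an unadjusted p under 0.05, and 25.7% against 33.3% for libraries that do not overlap.

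The total over each family was lower in the knockout by group means. Summed over the 20 Aldh genes, the wild-type libraries held 1659, 1923 and 2036 CPM and the knockout libraries 1494, 1501 and 1552 CPM, so that the groups did not overlap. The 6 Adh genes summed to 413, 567 and 518 CPM in wild type and 394, 398 and 372 CPM in the knockout, again without overlap. The 4 Cbr genes gave 195, 209 and 179 CPM against 172, 169 and 144 CPM, also apart. The 17 Akr genes overlapped, with 961, 1118 and 891 CPM in wild type and 940, 924 and 758 CPM in the knockout. Of single tested genes 33.3% did not overlap, and no background share was taken for sums, so these gaps cannot show an excess. The family totals follow their largest members. Akr1a1 made up 76.8% to 79.7% of Akr counts in every library and Adh1 64.5% to 73.7% of Adh counts. The Akr total and the share of Akr1a1 take Akr1b3 as listed, with 0 or 1 count, which should not be read as its level. Aldh2 made up 33.9% to 52.8% of Aldh counts and Cbr1 37.5% to 46.7% of Cbr counts. Adh1 itself overlapped between the genotypes, while Adh5 did not.

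**Figure D2:**
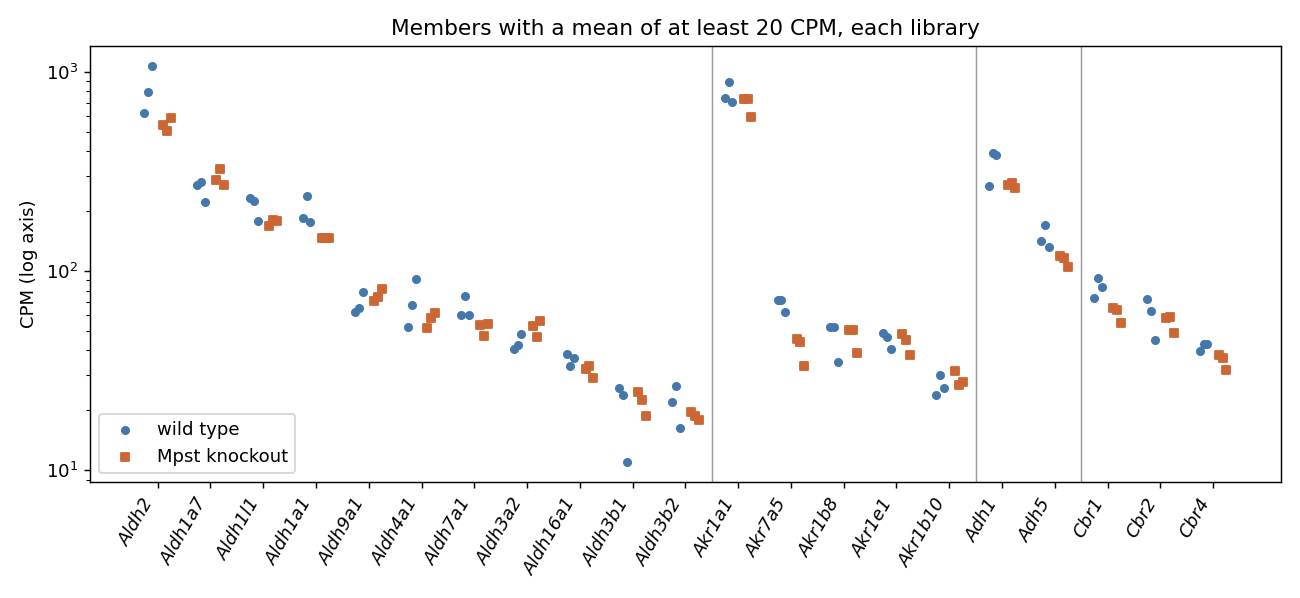
CPM on a log axis for the 21 members with a mean of at least 20 CPM, ordered by family and level, with 3 wild-type libraries (blue circles) and 3 knockout libraries (orange squares) each. Akr7a5 shows the clearest gap, with 62.7 to 71.9 CPM in wild type and 33.3 to 45.4 CPM in the knockout, while most other members overlap or nearly touch.

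Levels of different genes were compared per length of annotated exon. By the listed counts the most abundant transcript was Akr1a1, aldehyde reductase, at 283 ± 35.7 CPM per kb in wild type (SD, n = 3). Akr1b3, whose listed value should not be read as its level, cannot be placed in this order. Next came Aldh2 at 162 ± 44.6 CPM per kb, Adh1 at 155 ± 31.0 CPM per kb and Aldh1a7 at 125 ± 14.9 CPM per kb, and these 3 did not differ from each other by more than their spread. The same 4 genes led when the longest transcript was used as the length, but these 3 then lay farther apart. Their means over the 6 libraries were 206 for Adh1, 178 for Aldh2 and 134 CPM per kb for Aldh1a7. By all exons they were 138, 134 and 134 CPM per kb. Below them Aldh1l1 stood at 47.0 ± 6.63, Cbr2 at 45.4 ± 10.4, Aldh1a1 at 40.6 ± 6.85 and Akr7a5 at 38.4 ± 2.93 CPM per kb. The wild-type libraries of these genes overlapped, though the means of Aldh1l1 and Akr7a5 differed by more than either SD. That order depends on the length used. With the longest transcript in place of all exons, the mean of Aldh1a1 over the 6 libraries went from 35.2 to 73.7 CPM per kb, above Cbr2 at 52.1, Aldh1l1 at 46.5 and Akr7a5 at 42.6 CPM per kb.

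Among the aldo-keto reductases, Akr7a5 fell. It encodes an enzyme that reduces aflatoxin dialdehyde and succinic semialdehyde, and is located at chr4:139310744-139318426, plus strand, of GRCm38. The wild-type libraries held 72.0, 71.7 and 62.7 CPM and the knockout libraries 45.4, 44.4 and 33.3 CPM. Every wild-type library was above every knockout library, and the lowest of each group was replicate 3. In raw reads these were 1174, 1179 and 1351 against 381, 1008 and 785 counts, so counting error is small. Its mean fell from 68.8 ± 5.25 to 41.0 ± 6.71 CPM (SD, n = 3), 1.68-fold lower, with a log2 fold change of −0.75 (SE 0.14, edgeR adjusted p = 0.0260). DESeq2 gave an adjusted p of 0.00065 and limma-voom also called it. The direction held with each library left out (−0.82 to −0.62), but the call was kept only without wild-type replicate 3 (adjusted p = 0.00774). It ended without wild-type replicate 1 (0.0525) or 2 (0.124) and without knockout replicate 1 (0.0739), 2 (0.0769) or 3 (0.0760). Without the 2 libraries highest in muscle transcripts the log2 fold change was −0.59 (adjusted p = 0.290). No stretch of 75 bases, the read length, in its annotated transcripts occurs in another annotated gene.

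The bases before the start of Akr7a5 are shown because it is the member that was called. They are from RefSeq on GRCm38.p6, chr4:139310494-139310743, plus strand, and capitals mark CG dinucleotides. The window is 68.8% G or C, and 42 of its 250 bases lie in CG dinucleotides.
Akr7a5: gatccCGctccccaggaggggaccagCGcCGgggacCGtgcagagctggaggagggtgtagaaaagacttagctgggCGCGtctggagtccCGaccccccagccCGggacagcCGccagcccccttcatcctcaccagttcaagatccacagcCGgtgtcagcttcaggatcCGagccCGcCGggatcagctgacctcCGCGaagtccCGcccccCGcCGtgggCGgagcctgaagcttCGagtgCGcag

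The other tested aldo-keto reductases did not pass. Akr1a1 held 738, 890 and 707 CPM in wild type and 732, 728 and 595 CPM in the knockout, overlapping (log2 fold change −0.18, adjusted p = 0.476). The aldose reductase-like genes Akr1b8 and Akr1b10 lie next to each other on chromosome 6. Akr1b8 had 52.5, 52.5 and 35.2 CPM against 50.6, 50.8 and 38.7 CPM, a log2 fold change of −0.0012 with 2 standard errors reaching from −0.37 to 0.36. Akr1b10 had 23.8, 30.2 and 26.0 CPM against 31.5, 26.9 and 27.8 CPM (0.11, −0.16 to 0.38 by 2 standard errors). For both genes the libraries of the genotypes were interleaved. Akr1e1, a sugar-derived ketone reductase, had 49.2, 46.7 and 40.8 CPM against 48.4, 45.3 and 38.2 CPM (−0.05, adjusted p = 0.826).

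The Akr1c genes, which include hydroxysteroid dehydrogenases, form a cluster on chromosome 13 and were low. Akr1c14, a hydroxysteroid dehydrogenase acting on reduced androgens and progestins, was the member with the smallest p among those above 0. It had 4.11, 4.32 and 3.62 CPM in wild type and 6.32, 5.02 and 8.36 CPM in the knockout, without overlap (log2 fold change 0.71, SE 0.24, edgeR adjusted p = 0.101). It is named after its values were seen. Akr1c13 overlapped, at 13.5 to 17.5 CPM in wild type and 13.1 to 21.6 CPM in the knockout, and 14.3% of its stretches of 75 bases also occur in Akr1c12, so these genes could exchange or lose reads. Akr1c18, which inactivates progesterone, had 34, 23 and 10 raw counts in wild type and 6, 9 and 14 in knockout (−1.24, adjusted p = 0.193), and among the settings run was called only without wild-type replicate 3. Of the 17 Akr genes, 7 were not tested: Akr1b3, Akr1b7, Akr1c19, Akr1c20, Akr1c21, Akr1c6 and Akr1d1. Akr1c20, Akr1c6 and Akr1d1 had no count in any library, where 3 counts would be 0.127 to 0.358 CPM. Akr1b3, aldose reductase itself, was listed with 0 counts in 5 libraries and 1 count in knockout replicate 2. Only 12.1% of the stretches of 75 bases in its annotated transcripts occur in another annotated gene and none of its exons overlaps one. Why the listed value is so low was not tested, and it should not be read as the level of the gene.

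**Figure D3:**
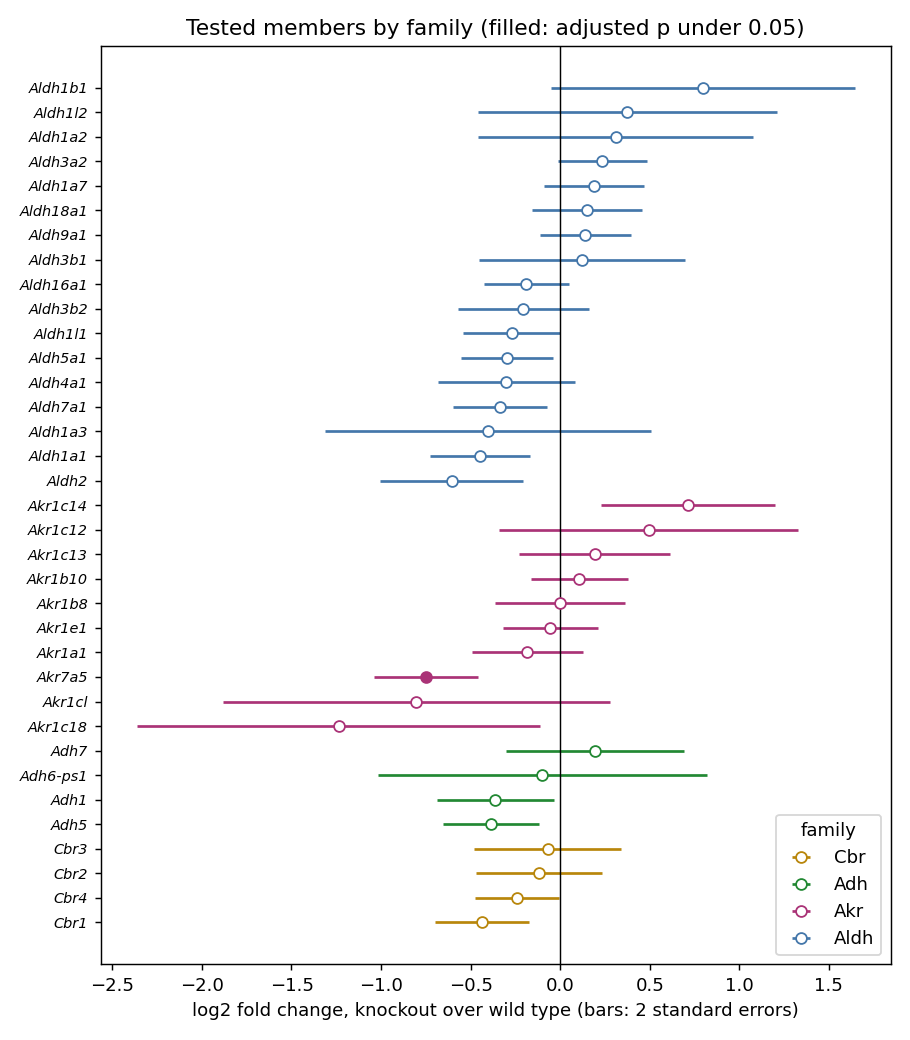
Log2 fold change of knockout over wild type (horizontal axis) with 2 standard errors for each of the 35 tested members, ordered within the Aldh (blue), Akr (purple), Adh (green) and Cbr (ochre) families. Akr7a5 at −0.75 is the filled point, the member with an adjusted p under 0.05, and the open points of the 4 families lie on both sides of 0 except in Cbr, where all 4 lie below.

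None of the 17 tested aldehyde dehydrogenases passed edgeR's test or limma-voom. At an unadjusted p under 0.05, 4 were lower (Aldh1a1, Aldh2, Aldh5a1 and Aldh7a1), as were 12.7% of all tested genes. DESeq2 called Aldh2 and Aldh1a1. Aldh2, the mitochondrial enzyme that clears acetaldehyde and lipid peroxidation aldehydes, is located at chr5:121566027-121593824, minus strand, of GRCm38. It had 622, 793 and 1075 CPM in wild type and 543, 508 and 586 CPM in the knockout. The groups did not overlap, but the wild-type libraries spread widely, with replicate 3 the highest. The means were 830 ± 228 and 546 ± 38.9 CPM (log2 fold change −0.61, SE 0.20, edgeR adjusted p = 0.0937; by DESeq2 0.0206). Left-out libraries moved the value from −0.77 without wild-type replicate 1, where edgeR called it (adjusted p = 0.0482), to −0.37 without wild-type replicate 3.

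The retinal dehydrogenase Aldh1a1 and its rodent paralog Aldh1a7 lie on chromosome 19 of GRCm38, Aldh1a1 at chr19:20492715-20643465 (plus strand) and Aldh1a7 at chr19:20692953-20727562 (minus strand), with 49487 bases between them. Aldh1a1 had 185, 239 and 177 CPM in wild type and 147, 147 and 147 CPM in the knockout. All knockout libraries lay below all wild-type libraries (log2 fold change −0.45, SE 0.14, edgeR adjusted p = 0.0822; by DESeq2 0.0300). edgeR called it without wild-type replicate 3 (adjusted p = 0.0240). Aldh1a7 did not follow it, with 271, 281 and 223 CPM in wild type and 287, 325 and 272 CPM in the knockout, where knockout replicate 3 lay below wild-type replicate 2 (0.19, SE 0.14, edgeR adjusted p = 0.410). The ratio of Aldh1a7 to Aldh1a1 raw counts, which does not depend on library scaling, was 1.46, 1.17 and 1.26 in the wild-type libraries against 1.95, 2.22 and 1.85 in those of the knockout. Its knockout mean was 1.54 times the wild-type mean and the groups did not overlap. Such ratios were taken for 6 pairs of members, chosen after the values were seen and with no test, and 3 did not overlap. The others without overlap were Aldh3a2 to Aldh2 (1.73 times the wild-type mean) and Cbr1 to Cbr3 (0.753 times). Of single tested genes 33.3% did not overlap, and no background share was taken for ratios, so 3 of 6 cannot show an excess. Reads of the genes can be told apart, since 1.01% of the stretches of 75 bases in Aldh1a1 and 2.51% of those in Aldh1a7 occur in the other gene.

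The bases before the starts of this pair are shown because the neighbours are alike near their starts and the ratio of their counts did not overlap between genotypes. They are from RefSeq on GRCm38.p6, Aldh1a1 at chr19:20601718-20601967 on the plus strand, the closer match of its 2 listed starts, and Aldh1a7 at chr19:20727557-20727806 on the minus strand. Capitals mark bases identical in a global alignment.
Aldh1a1: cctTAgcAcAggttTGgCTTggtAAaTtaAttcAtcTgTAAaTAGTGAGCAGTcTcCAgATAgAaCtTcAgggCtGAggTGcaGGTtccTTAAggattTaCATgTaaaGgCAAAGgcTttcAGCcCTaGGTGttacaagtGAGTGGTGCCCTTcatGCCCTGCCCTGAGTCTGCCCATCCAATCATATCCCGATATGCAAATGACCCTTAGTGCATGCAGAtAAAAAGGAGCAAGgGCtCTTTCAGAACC
Aldh1a7: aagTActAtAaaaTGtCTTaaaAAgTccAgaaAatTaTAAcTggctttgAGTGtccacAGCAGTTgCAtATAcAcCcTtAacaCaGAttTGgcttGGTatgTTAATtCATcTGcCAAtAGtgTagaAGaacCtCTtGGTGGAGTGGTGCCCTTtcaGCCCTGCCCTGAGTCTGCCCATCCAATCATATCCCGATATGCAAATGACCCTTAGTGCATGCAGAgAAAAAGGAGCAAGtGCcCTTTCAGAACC
Of the 100 bases nearest the start, 94 are identical, against 82 of the 150 bases farther away.

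**Figure D4:**
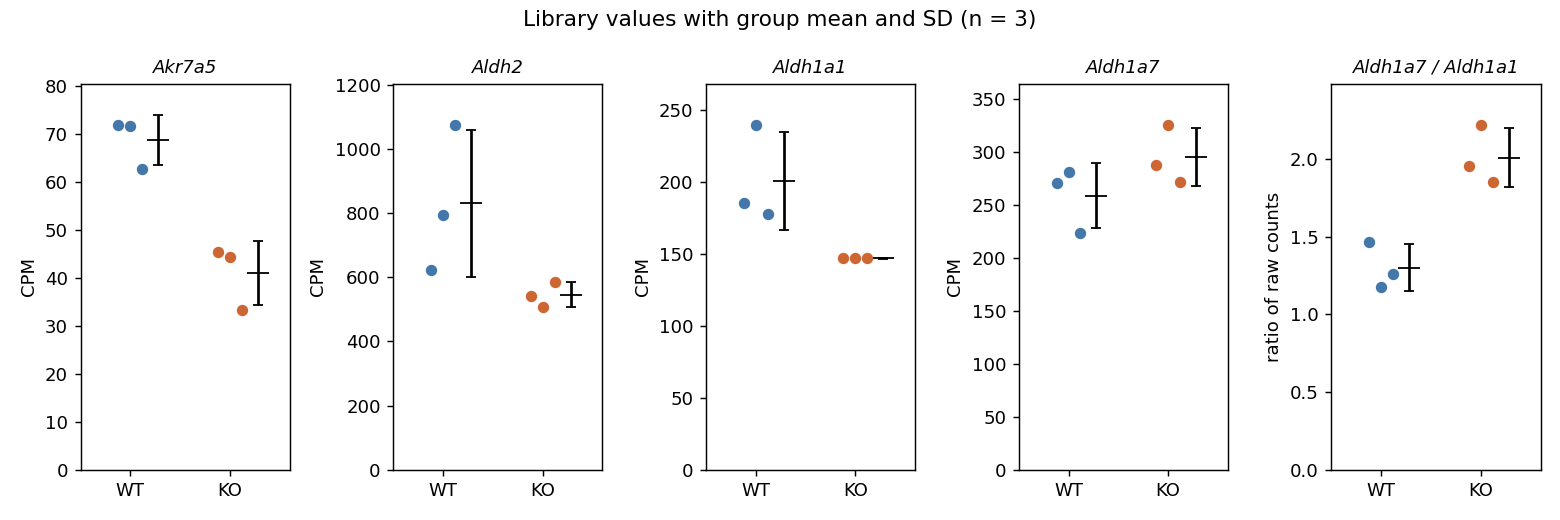
CPM of Akr7a5, Aldh2, Aldh1a1 and Aldh1a7 in 3 wild-type (blue) and 3 knockout (orange) libraries, and the ratio of Aldh1a7 to Aldh1a1 raw counts, each from a zero baseline, with the group mean and SD as black bars. Akr7a5, Aldh2, Aldh1a1 and the ratio do not overlap between genotypes, and Aldh1a7 does.

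The remaining retinal dehydrogenases were low, with Aldh1a2 at 2.14 to 6.26 CPM in wild type and 4.65 to 7.22 CPM in the knockout and Aldh1a3 at 2.23 to 4.66 and 1.36 to 4.65 CPM. Aldh1l1, the cytosolic formyltetrahydrofolate dehydrogenase, had 233, 226 and 178 CPM against 169, 180 and 179 CPM. The overlap was at wild-type replicate 3, and the gene was called without that library (log2 fold change −0.38, adjusted p = 0.0462, against −0.27 and 0.230 with all libraries). Its mitochondrial counterpart Aldh1l2 stayed at or below 1.70 CPM.

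Enzymes of amino acid and amine aldehydes did not pass, and of the 5 tested, 3 lay below 0 and 2 above, where 49.5% of all tested genes lay below 0. Aldh7a1, of lysine breakdown, had 60.5, 75.2 and 59.9 CPM in wild type and 53.4, 47.2 and 54.5 CPM in the knockout, apart but close (log2 fold change −0.34, edgeR adjusted p = 0.137). Aldh5a1, of GABA breakdown, had 19.4, 22.4 and 21.8 CPM against 16.8, 16.8 and 18.2 CPM, also apart (−0.30, edgeR adjusted p = 0.174). Aldh4a1, of proline breakdown, had 52.2, 67.7 and 91.2 CPM against 51.6, 58.2 and 61.4 CPM (−0.30, adjusted p = 0.341), and 28.7% of its stretches of 75 bases also occur in the overlapping predicted gene Gm21969. Aldh9a1, of carnitine synthesis, went the other way with 62.3, 65.5 and 78.4 CPM against 70.9, 74.5 and 81.7 CPM (0.14, adjusted p = 0.512). The proline-synthesis enzyme Aldh18a1 had 12.2 to 14.3 CPM against 13.2 to 16.4 CPM.

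The lipid aldehyde enzymes did not pass. Aldh3a2, the fatty aldehyde dehydrogenase of the endoplasmic reticulum, had 40.8, 42.8 and 48.6 CPM in wild type and 52.8, 46.5 and 56.4 CPM in the knockout (log2 fold change 0.24, adjusted p = 0.256), overlapping through wild-type replicate 3. Aldh3b1 had 25.8, 23.9 and 11.0 CPM against 24.7, 22.6 and 18.8 CPM, with wild-type replicate 3 the lowest. Aldh3b2 had 21.9, 26.6 and 16.3 CPM against 19.6, 18.8 and 17.8 CPM, and shares 18.3% of its stretches of 75 bases with other genes, mainly Aldh3b3. Aldh16a1 stood at 36.0 ± 2.47 and 31.7 ± 2.24 CPM (SD, n = 3, −0.19). Aldh1b1, a mitochondrial relative of Aldh2, had at most 1.19 CPM. Aldh3a1, Aldh3b3 and Aldh8a1 were not tested and had at most 9 raw counts in a library.

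Of the alcohol dehydrogenases, clustered on chromosome 3, none of 4 tested passed. Adh5 was lower at an unadjusted p under 0.05, as were 12.7% of all tested genes. Adh5 is the glutathione-dependent formaldehyde dehydrogenase, which also reduces S-nitrosoglutathione. It had 141, 171 and 132 CPM in wild type and 120, 116 and 105 CPM in the knockout, without overlap (log2 fold change −0.38, SE 0.13, edgeR adjusted p = 0.105). The call appeared without wild-type replicate 3 (−0.45, adjusted p = 0.0370). Adh1, which oxidises ethanol and retinol, had 266, 390 and 382 CPM against 270, 276 and 262 CPM. Wild-type replicate 1 sat among the knockout libraries (−0.36, adjusted p = 0.188). The ratio of Adh1 to Adh5 raw counts overlapped, at 1.89 to 2.88 and 2.26 to 2.50. Adh7 and the pseudogene Adh6-ps1 stayed at or below 3.27 CPM, and Adh4 and Adh6a, with at most 13 raw counts, were not tested.

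All 4 carbonyl reductases were tested, lay below 0 and did not pass edgeR's test, and Cbr1 was called by DESeq2. Cbr1, which reduces quinones and prostaglandins, had 73.2, 92.7 and 83.7 CPM in wild type and 65.7, 63.8 and 55.2 CPM in the knockout, without overlap. Its log2 fold change was −0.44 (SE 0.13, edgeR adjusted p = 0.0736; by DESeq2 0.0364). Cbr4, a mitochondrial reductase that takes part in fatty acid synthesis there, had 39.7, 43.1 and 43.1 CPM against 37.9, 36.8 and 32.1 CPM, also apart (−0.24, adjusted p = 0.220). Cbr2 overlapped at 45.4 to 72.4 and 48.9 to 59.0 CPM, as did Cbr3, the neighbour of Cbr1 on chromosome 16, at 7.10 to 10.4 and 7.68 to 9.78 CPM.

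Around these families, a list of 60 genes covered retinoid handling, aldehyde conjugation, carbonyl reduction and the NRF2 response. Of its 50 tested members, 5 fell (10%) and 2 rose (4%), against 2.65% and 4.76% of all tested genes. The list was chosen with earlier results of these data known, so these shares cannot show an excess. The glutathione transferase Gsta4, which conjugates lipid peroxidation aldehydes, had 33.8, 46.3 and 49.4 CPM in wild type and 17.3, 18.8 and 19.7 CPM in the knockout (log2 fold change −1.21, SE 0.16, edgeR adjusted p = 0.0129). Gsta3 fell from 86.9 ± 25.3 to 39.3 ± 1.70 CPM and Gstm1 from 339 ± 34.3 to 186 ± 15.2 CPM (SD, n = 3), both transferases from gene families with close copies. Khk, which phosphorylates fructose, fell from 26.4 ± 3.01 to 15.6 ± 2.65 CPM, and the reductase Dhrs7 from 124 ± 3.77 to 86.9 ± 11.6 CPM. Hmox1, heme oxygenase, rose from 50.4 ± 15.0 to 95.2 ± 9.99 CPM (0.92, SE 0.21, edgeR adjusted p = 0.0397). Hmox1 is also abundant in macrophages, whose markers were higher in the same libraries, and their part in its rise was not tested. Dhrs9, a retinol and steroid dehydrogenase, rose from 1, 1 and 0 raw counts to 8, 18 and 20, too few for a fold. These 7 calls ended without each of the 3 knockout libraries in turn and without wild-type replicate 2.

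Of 9 NRF2 targets in that list, Hmox1 alone was called (11.1%, against 4.76% higher calls over all tested genes). Their median log2 fold change was 0.36, with 7 above 0 and 2 below, Nqo1 at −0.30 and G6pdx at −0.11, while 49.5% of all tested genes lay below 0. NRF2 is a transcription factor that responds to electrophiles, and several Akr and Cbr genes are counted among its targets in other settings. The short motif TGACNNNGC, the core of the antioxidant response element, was searched on both strands of 300-base RefSeq promoters on GRCm38.p6. It occurred in 5 of 40 promoters of 38 members (12.5%), and in 12.4% of 32851 promoters of all genes. The members with a match were Adh6a, Akr1c19, Akr1cl, Aldh1a2 and Aldh9a1, and Akr7a5 was not among them. Promoters were read for 38 of the 47 members. The others had no listed promoter and were not searched: Aldh2, Aldh7a1, Aldh3b2, Aldh1a3, Aldh1l2, Aldh3a1, Akr1b3, Akr1c20 and Adh6-ps1.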

How the data were processed

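Values were the raw counts per gene symbol that the authors deposited, not normalised. The submitters' processing notes name HISAT2 2.1.0, HTSeq 0.13.5, DESeq2 1.26 and build mm10; the annotation and the counter's settings were not given in the sources used here. Libraries were made with an unstranded kit and read as 75-base single ends, per the labels' protocols. Reads that the counter gave to no feature, 8.85% to 14.7% of uniquely placed reads, stayed out of library sizes.

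The main test used edgeR 4.0.16 under R 4.3.3 (filterByExpr, TMM scaling, robust quasi-likelihood F test on genotype, all 6 libraries), adjusted by Benjamini-Hochberg over 14065 genes, with limma 3.58.1 and DESeq2 1.42.0 as alternatives. The functions were tested on simulated data. SE is the log2 fold change over the square root of F. Replicates of a group differed by 3.27 to 23.1 times sampling noise. Positions, exon lengths and shared 75-base stretches came from GENCODE M21 on GRCm38, matched by symbol for all 47 members. Promoters were aligned with Biopython 1.88.

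Named members were those called, the smallest p of each family and those of at least 20 CPM on average. Further names were picked once values had been seen. The members and lists were chosen with earlier results of these data known.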

Additional observations from a re-analysis of the deposited data

How the results depend on the processing

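Counts of calls depended on the libraries and the tool. With a library left out, genes called higher ranged from 0 to 1434 (669 with all), genes called lower from 1 to 1167 (373) and members called lower from 0 to 5 (1), with 0 members higher throughout. DESeq2 called 1074 higher, 894 lower and 4 members lower. Without the 2 libraries highest in muscle transcripts, an alternative added after seeing the data, these were 0, 1 and 0. With the replicate number as a replicate block they were 1387, 1289 and 5 (Adh5, Akr7a5, Aldh1a1, Aldh2 and Cbr1). Same-numbered libraries correlated at 0.171, −0.0994 and 0.303 in their deviations from group means, so the numbers were not taken to pair the samples, and wild-type replicate 1 correlated best with knockout replicate 2 (0.357). RLE or upper-quartile scaling, limma-voom, both other filters, thinning and no robust estimation kept 1 member, Akr7a5. Direction changed for members near 0. Akr1b8 was 0.0073 with limma-voom, 0.016 at 10 CPM or more, 0.013 with the replicate block, 0.0080 when thinned and 0.21 without the muscle-rich libraries, where Akr1e1 was 0.057, Akr1a1 0.015 and Aldh3b2 0.0058. With a library left out, Akr1b8 ranged from −0.17 to 0.12, Akr1e1 from −0.13 to 0.039, Aldh3b1 from −0.18 to 0.34 and Cbr2 from −0.28 to 0.042. The causes were not tested. Depth limits precision for members of few counts, most in the smallest library, where 1 CPM is 8.39 counts.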
